A study of Mus musculus with 18 samples.

Results

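Nascent RNA of 9 genes of the lymphoid lineage was examined in sorted mouse fetal liver cells: Il7r, Ebf1, Pax5, Rag1, Dntt, Vpreb1, Igll1, Cd79a and Cd79b. They were taken by gene symbol from a deposited count table, where they make up 9 of 54232 gene identifiers. All 9 are protein-coding. Counts were above 0 in at least 1 library for 8 of them.

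Cells came from fetal livers of C57BL/6 embryos at e12.5-e13.5, and no population carried a mutation or drug. After sorting, cells rested for 6 h in erythroid medium and were labelled for 45 min with 500 µM 4-thiouridine (4sU), a uridine analog that marks RNA made during the pulse (4sU-seq). The 5 erythroid populations were negative for a lineage antibody panel (CD41, CD45R, CD3e, CD11b, Ly-6G/6C) and were ordered by CD71, the transferrin receptor, and Ter119, a late erythroid antigen. S0-Low was CD71- and Ter119-, S0-Medium was CD71 medium and Ter119-, S1 was CD71 high and Ter119-, S2 was CD71 high with medium Ter119, and S3 was high for both. Lin+ cells carried at least 1 antigen of the panel. CD45R, an isoform of CD45 found on B lineage cells, is the antigen in that panel most tied to the genes described here. Each population had 3 libraries, 18 in all. The labels do not say whether replicates came from separate litters, so p-values measure only the spread between these libraries.

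B lymphocytes arise from lymphoid progenitors that begin to express the IL-7 receptor, and the fetal liver is a main site of this process before birth. EBF1 and then PAX5 turn on the B cell programme. RAG1 is part of the recombinase that assembles the immunoglobulin heavy chain gene, and the polymerase encoded by Dntt adds bases at the joints. The new heavy chain then pairs with a surrogate light chain, made from Vpreb1 and Igll1. With the signalling chains Igα and Igβ, made from Cd79a and Cd79b, they form the pre-B cell receptor.

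Total counts ran from 9452476 to 40567976 per library, and the shallowest library was S0-Low replicate 3. Levels are given as counts per 1000000 (CPM) after TMM scaling, which sets libraries to a common scale. At these depths 3 counts, the number a count of 0 still allows, correspond to between 0.0739 and 0.317 CPM before that scaling, for counting error only. All libraries were labelled as primary erythroblasts. The 9 erythroid markers measured summed to between 28535 and 48259 CPM in S3 against 217 to 269 CPM in Lin+, where 14 neutrophil and monocyte markers summed to between 4630 and 7027 CPM against 528 to 899 CPM in S0-Low. Lin+ was thus led by myeloid rather than erythroid markers. In bulk samples of this kind, fewer cells of a type and less RNA per cell cannot be told apart.

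Of the members with a promoter in the RefSeq table (GRCm38.p6), 5 were past the threshold of some comparison: Il7r, Ebf1, Pax5, Vpreb1 and Igll1. The 250 bases before the first listed start of each are shown because each of these genes was higher in Lin+ than in S3, with capitals marking E-boxes (CANNTG, the motif bound by E proteins such as TCF3). The windows are chr15:9529877-9530126 (minus strand) for Il7r, chr11:44617850-44618099 (plus) for Ebf1, chr4:44710695-44710944 (minus) for Pax5, chr16:16869256-16869505 (minus) for Vpreb1 and chr16:16863986-16864235 (minus) for Igll1.
Il7r: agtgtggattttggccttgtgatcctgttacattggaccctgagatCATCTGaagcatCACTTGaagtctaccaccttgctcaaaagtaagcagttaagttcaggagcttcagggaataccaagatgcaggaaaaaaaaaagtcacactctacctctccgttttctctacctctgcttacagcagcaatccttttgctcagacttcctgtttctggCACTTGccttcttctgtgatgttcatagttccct
Ebf1: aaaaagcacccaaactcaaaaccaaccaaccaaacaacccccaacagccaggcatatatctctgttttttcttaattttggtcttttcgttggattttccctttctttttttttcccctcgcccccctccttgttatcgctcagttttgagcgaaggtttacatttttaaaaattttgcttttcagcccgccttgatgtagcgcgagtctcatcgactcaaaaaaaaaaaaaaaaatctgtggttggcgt
Pax5: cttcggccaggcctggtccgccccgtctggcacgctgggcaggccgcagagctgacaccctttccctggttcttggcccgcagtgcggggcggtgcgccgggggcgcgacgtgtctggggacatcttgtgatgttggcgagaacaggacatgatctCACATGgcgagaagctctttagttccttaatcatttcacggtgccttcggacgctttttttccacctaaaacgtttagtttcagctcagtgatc
Vpreb1: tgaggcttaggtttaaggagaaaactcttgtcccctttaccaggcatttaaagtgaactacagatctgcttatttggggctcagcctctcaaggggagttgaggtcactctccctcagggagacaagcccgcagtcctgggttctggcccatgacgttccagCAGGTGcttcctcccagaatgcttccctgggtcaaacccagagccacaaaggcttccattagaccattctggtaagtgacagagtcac
Igll1: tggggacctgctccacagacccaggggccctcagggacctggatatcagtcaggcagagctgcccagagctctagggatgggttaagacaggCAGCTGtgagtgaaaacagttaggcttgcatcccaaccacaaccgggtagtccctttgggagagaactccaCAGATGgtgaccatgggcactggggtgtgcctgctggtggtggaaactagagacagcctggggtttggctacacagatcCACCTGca

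Motifs were sought on both strands from 250 bases before to 50 bases after each start, in 9 promoters of 8 members, since Ebf1 has a pair of listed starts. An E-box was present in 8 of 9, all but the first Ebf1 start, against 72.3% of all 32851 promoters. The ETS core GGAA was in 9 of 9 against 96% of all promoters. The Ikaros motif TGGGAA, which contains GGAA, was in 2 of 9, the second Ebf1 start and Rag1, against 25.6%. The EBF1 motif, TCCC and GGGA separated by any 2 bases, was in 0 of 9 against 0.904% of all promoters. These are matches of letters in a short window and say nothing of binding.

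Vpreb1 has a near-identical copy, Vpreb2, and the pair is shown because reads from it can be counted for either gene. Their coding sequences (GENCODE vM1) are each 429 bases long and differ at 9 bases, with 97.9% identity and a shared run of 196 bases. Of 736 stretches of 31 bases in the Vpreb1 transcript, 368 (50%) also occur in Vpreb2. Coding bases 268 to 387 hold 6 of the 9 differences, in capitals.
Vpreb1: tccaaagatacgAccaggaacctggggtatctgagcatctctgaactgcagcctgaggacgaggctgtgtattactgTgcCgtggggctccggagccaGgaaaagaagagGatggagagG
Vpreb2: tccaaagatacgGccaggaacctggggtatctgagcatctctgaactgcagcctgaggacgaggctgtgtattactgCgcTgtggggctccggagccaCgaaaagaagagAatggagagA

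Mean levels were highest in Lin+ for the 8 members with counts, and in S1, S2 and S3 no library was above 1.38 CPM for any member. Il7r, Ebf1 and Cd79b carried most of the counts outside Lin+. The other 6 had at most 32 counts in any S0-Low library. The plot of levels by library shows this order gene by gene. Where populations are said to stand apart, or replicate pairs to agree, the share of all genes that do so was not counted.

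**Figure D1:**
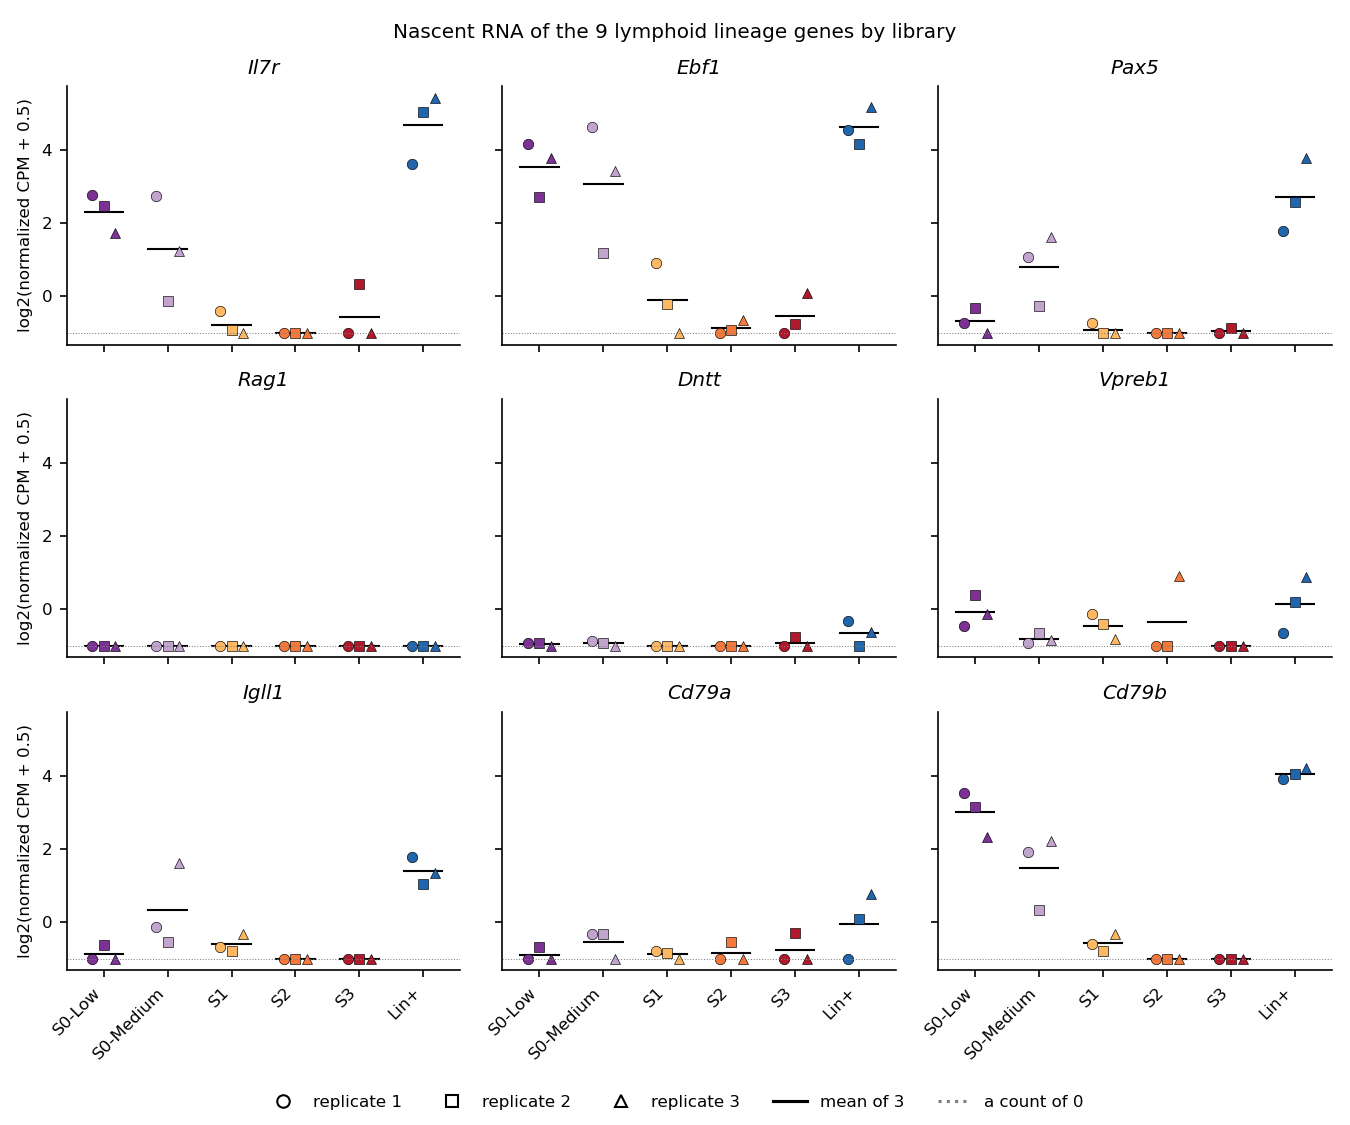
Level of each of the 9 genes in all 18 libraries, as log2(normalized CPM + 0.5) on the vertical axis, by population. Circles, squares and triangles are replicates 1, 2 and 3, black lines are means of 3 libraries, and the dotted line is a count of 0; Il7r, Ebf1 and Cd79b stand above it in every S0-Low, S0-Medium and Lin+ library, and Rag1 in none.

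Il7r (ENSMUSG00000003882, chr15:9506159-9529941) encodes the α chain of the IL-7 receptor, which lymphoid progenitors need to survive and divide. Its level in replicates 1, 2 and 3 was 6.3, 5.04 and 2.82 CPM in S0-Low and 11.8, 32.6 and 42.9 CPM in Lin+. In S0-Medium it was 6.18, 0.42 and 1.88 CPM. All 3 Lin+ libraries were above all 3 S0-Low libraries, whereas S0-Medium overlapped with S0-Low but was lower in 3 of 3 pairs of the same replicate number. Neither difference passed the threshold in the main edgeR test.

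From S1 onward Il7r had few counts. They were 10, 1 and 0 in S1, 0 in all 3 S2 libraries, and 17 in S3 replicate 2 with 0 in the rest of S3. The order of means was Lin+ (29.1 ± 15.8 CPM, SD, n = 3), S0-Low (4.72 ± 1.76), S0-Medium (2.83 ± 3), S3 (0.255 ± 0.442), S1 (0.0934 ± 0.14) and S2 (0). Of neighbours in this order only Lin+ and S0-Low did not overlap, since S0-Medium replicate 2 was below S3 replicate 2.

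Ebf1 (ENSMUSG00000057098, chr11:44618100-45008096) encodes the transcription factor that commits progenitors to the B lineage. Its level was 17.5, 6.03 and 13.3 CPM in S0-Low, 24.3, 1.8 and 10.3 CPM in S0-Medium, and 23.2, 17.4 and 35.7 CPM in Lin+. The 3 populations overlapped, and S0-Medium replicate 2 was the lowest of these 9 libraries. Within replicate numbers Lin+ was above S0-Low in 3 of 3 pairs, though the difference missed the threshold (edgeR, adjusted p = 0.95). Its counts were 54, 14 and 0 in the S1 libraries. They were 0, 1 and 3 in S2, and 0, 2 and 10 in S3. Mean levels were 25.4 ± 9.35 CPM in Lin+, 12.3 ± 5.78 for S0-Low and 12.2 ± 11.4 for S0-Medium. They were 0.579 ± 0.711 in S1, 0.222 ± 0.309 in S3 and 0.0547 ± 0.073 in S2 (SD, n = 3 each). Among the last 3 populations the libraries overlapped.

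Pax5 (ENSMUSG00000014030, chr4:44524748-44710694) encodes the factor that keeps B cells committed. Its level was 0.103, 0.299 and 0 CPM in S0-Low, 1.6, 0.326 and 2.61 CPM in S0-Medium, and 2.96, 5.51 and 13.2 CPM in Lin+. The 3 populations stood in this order without overlap, although S0-Low had only 4, 12 and 0 counts. S1 had 4, 0 and 0 counts, S2 had 0 in every library and S3 had 1 count in all. A lncRNA gene inside Pax5, Gm12462, had 11 counts over all 18 libraries.

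Among the genes of V(D)J recombination, Rag1 (ENSMUSG00000061311, chr2:101638252-101649532), a subunit of the recombinase, is listed at 0 in all 18 libraries. A 0 throughout is not read as absence, since 2599 of 17693 protein-coding genes (14.7%) are listed so, among them Rpl13, which encodes a ribosomal protein, and Ndufa13, which encodes a mitochondrial respiratory subunit. Rag2, the adjacent gene for the other recombinase subunit, had 1132 counts in all. Its level was 1.78, 5.53 and 16.3 CPM in S0-Low and 0.168, 3.01 and 8.23 CPM in Lin+, which overlapped, and it had 0 counts in every S2 and S3 library.

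Dntt (ENSMUSG00000025014, chr19:41029275-41059525) encodes terminal deoxynucleotidyl transferase, which adds bases at recombination joints and is known to be scarce in fetal B lymphopoiesis. Dntt had 1, 1 and 0 counts in S0-Low against 9, 0 and 7 in Lin+. S0-Medium had 3 counts in all, S3 had 2, and S1 and S2 had none. It did not pass the filter on low counts. The ratio of Lin+ to S0-Low counts per effective depth was 5.98, with a 95% counting interval of 1.41 to 53.6 (exact Clopper-Pearson) that leaves out the spread between libraries, and Lin+ replicate 2 was at 0.

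The surrogate light chain genes lie 4415 bases apart on chromosome 16 but did not share 1 pattern. Igll1 (ENSMUSG00000075370, chr16:16860671-16863985), which encodes the λ5 chain, was at 0, 0.15 and 0 CPM in S0-Low, 0.417, 0.187 and 2.58 CPM in S0-Medium, and 2.93, 1.56 and 2.05 CPM in Lin+. Both S0-Medium and Lin+ were above every S0-Low library and overlapped each other. S1 had 5, 3 and 9 counts, and S2 and S3 were at 0 in every library.

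Vpreb1 (ENSMUSG00000059305, chr16:16868401-16869255) encodes the V-like chain. S0-Low libraries held 9, 32 and 5 counts (0.482 ± 0.288 CPM, SD, n = 3) and Lin+ libraries 4, 28 and 65 (0.708 ± 0.609 CPM). In S1 there were 16, 10 and 2 counts, and in S0-Medium 1, 6 and 2. The libraries of S0-Low, S1 and Lin+ overlapped, and S0-Medium had the lowest mean of these 4 populations. S2 replicate 3 alone held 30 counts while S2 replicates 1 and 2 and all of S3 had 0. Vpreb2 had 25, 0 and 10 counts in Lin+, 4 in S0-Medium and 0 elsewhere, so how counts were divided within the pair is uncertain.

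Cd79b and Cd79a, whose products work as a heterodimer, differed widely in count. Cd79b (ENSMUSG00000040592, chr11:106311341-106314562) was at 11.1, 8.33 and 4.56 CPM in S0-Low, 3.26, 0.746 and 4.14 CPM in S0-Medium, and 14.7, 16.2 and 18 CPM in Lin+. The 3 populations did not overlap. S1 had 6, 3 and 9 counts, and all 6 libraries of S2 and S3 were at 0.

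Cd79a (ENSMUSG00000003379, chr7:24897497-24901858) had 0, 5 and 0 counts in S0-Low, where Cd79b had 429, 334 and 55. It had 13, 13 and 0 counts in S0-Medium and 0, 24 and 58 in Lin+, with 1 library at 0 in each. In S1, S2 and S3 it had 5, 7 and 7 counts in all. The populations overlapped throughout, and 1 library held all 7 counts in S2 and likewise in S3.

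Levels of different genes were compared only per kilobase of exon (GENCODE vM1 exon lengths). In Lin+ the mean level per kilobase was highest for Cd79b (11.4 ± 1.14 CPM per kb, SD, n = 3) and Il7r (9.08 ± 4.94), which overlapped. Ebf1 (2.61 ± 0.959) and Pax5 (2.11 ± 1.56) came next, followed by Igll1 (1.01 ± 0.32), Vpreb1 (0.636 ± 0.547), Cd79a (0.401 ± 0.413) and Dntt (0.0702 ± 0.0712). In S0-Low the order of the leading genes was Cd79b (5.58 ± 2.29 CPM per kb), Il7r (1.47 ± 0.549), Ebf1 (1.26 ± 0.593) and Vpreb1 (0.433 ± 0.259), and the rest were at or below 0.0392 CPM per kb. In each S0-Low library Cd79b was above Il7r and Ebf1. These values set nascent RNA, which includes unspliced transcripts, against exon length only.

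The study describes S0-Low cells as stem and progenitor cells together with early erythroid progenitors. They were compared with each later population to follow these genes as cells matured. The summed level of the 8 stem and progenitor markers was 1059 to 1578 CPM in S0-Low, above the 420 to 870 CPM of the 9 erythroid markers. Stem and progenitor markers were at 518 to 913 CPM in S0-Medium, 174 to 279 in S1, 18.5 to 129 in S2 and 1.61 to 10.8 in S3, so that they moved with the members' falls given here. Their part in those falls was not tested. All of these comparisons share the 3 S0-Low libraries, as does that with Lin+. No difference between S0-Medium and S0-Low passed the threshold for the 6 members tested. Pax5 and Igll1 were above, and Cd79b and Vpreb1 below, every S0-Low library in S0-Medium, with log2 fold changes of 3.37 ± 1.77 (SE), 4.16 ± 1.87, -1.56 ± 1.15 and -2.64 ± 1.87 that missed the threshold (adjusted p = 1 for each). This separation was not counted over all genes, and single libraries moved the fold changes. Without S0-Low replicate 2 Pax5 was at 4.55 and Igll1 at 8.01 on the log2 scale, and without S0-Medium replicate 3 they were at 2.72 and 2.35. The 8.01 depends on the prior count, since Igll1 was at 0 in the other S0-Low libraries. Vpreb1 was at -3.47 without S0-Medium replicate 2. Without S0-Medium replicate 1 Il7r, at -0.74 ± 1.67 with all libraries, was at -2.06. At an unadjusted p under 0.05 there was 1 member, Igll1, and DESeq2 called 0. Over all 16555 genes edgeR called 0% higher and 0% lower, with 295 and 244 at an unadjusted p under 0.05. DESeq2, which was run on all 54232 identifiers with its own filter, called 31 higher and 24 lower. The median log2 fold change was -0.38 over the members tested and 0.03 over all genes.

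In S1, Il7r, Ebf1 and Cd79b lay below every S0-Low library, a separation not counted over all genes. The log2 fold changes were -5.58 ± 2.04, -4.39 ± 1.61 and -5.48 ± 1.37 (SE), with adjusted p of 0.178, 0.172 and 0.0575. Without S1 replicate 1 they were -8.11 for Il7r and -6.10 for Ebf1, and without S1 replicate 3 that of Cd79b was -6.07. edgeR therefore called 0 of 6 members, against 0.979% of all genes higher and 1.95% lower (162 and 322, or 115 and 384 with library totals, which moved the median of all genes to -0.17). In fits without 1 library these counts were between 36 and 83 higher and between 51 and 212 lower. Il7r, Ebf1 and Cd79b each had an unadjusted p under 0.05, as did 1004 genes that were higher and 1653 that were lower of 16555. DESeq2 called all 3 lower, among 385 genes higher and 1323 lower of 54232 identifiers. With the replicate number as a block, Cd79b passed the threshold (log2 fold change -5.73, adjusted p = 0.0457). Over edgeR and DESeq2 alternatives its adjusted p ran from 1.44e-08 to 0.256. Pax5, Vpreb1 and Igll1 overlapped with S0-Low and differed by -1.91, -0.97 and 1.52 on the log2 scale, with adjusted p of at least 0.72. These sizes rested on few counts. Without S1 replicate 1 Pax5 was at -5.15 and Vpreb1 at -1.61, and without S0-Low replicate 2 Pax5 was at -0.80 and Igll1 at 5.32. The -5.15 and 5.32 depend on the prior count, since 1 population was then at 0. Igll1 was at 0.85 without S1 replicate 3 and 0.89 without S0-Low replicate 1. The 6 members had a median of -3.15, against 0.03 over all genes.

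In S2, Il7r, Ebf1 and Cd79b were lower than in S0-Low and 0 of 6 members were higher. Over all genes 6.92% were called lower and 4.37% higher (1145 and 724, or 1322 and 389 with library totals, which moved the median of all genes to -0.33). Ebf1 fell by 7.78 ± 1.94 on the log2 scale (adjusted p = 0.0182). Il7r and Cd79b were at 0 in every S2 library, so that S2 was at least 41.1-fold lower for Il7r (adjusted p = 0.0262) and at least 69.6-fold lower for Cd79b (adjusted p = 0.00357), with the floor set at 3 counts per library.

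The S2 calls for Il7r and Ebf1 were lost in some fits with 1 library fewer. Without S2 replicate 1 or without S2 replicate 2 only Cd79b remained past the threshold, with adjusted p for Il7r of 0.07 and 0.0766 and for Ebf1 of 0.0631 and 0.0711. Il7r was also lost without S2 replicate 3 (0.0816) and without S0-Low replicate 1 (0.0575). In these fits the log2 fold change was between -9.93 and -10.19 for Il7r (-10.17 with all libraries, a fitted size that depends on the prior count) and -7.24 and -7.42 for Ebf1. Without S2 replicate 3 that of Ebf1 was -9.30 (adjusted p = 0.0391). Vpreb1, with 30 counts in S2 replicate 3, had a log2 fold change of -0.09 ± 1.76, or -6.91 without that library (adjusted p = 0.117). The -6.91 depends on the prior count, since Vpreb1 was at 0 in the other S2 libraries. Over the members the median was -6.46, or -2.79 with genes at 0 set to their bound, against -0.02 over all genes.

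In S3, the most mature population, Ebf1 and Cd79b were lower than in S0-Low. Ebf1 fell by 5.75 ± 1.75 on the log2 scale (adjusted p = 0.0191), and Cd79b was at least 44.8-fold lower (adjusted p = 0.0013). These were 2 of 6 members, against 22.4% of all genes called lower and 13.4% higher. With library totals in place of TMM the split over all genes moved from 2220 higher and 3712 lower to 1156 higher and 6228 lower, and the median of all genes from -0.54 to -1.36. Vpreb1, at 0 in every S3 library, had a bound of 2.7-fold at an adjusted p of 0.0551, and Il7r had a log2 fold change of -4.14 ± 1.91 at 0.102.

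DESeq2 called 4 members lower in S3, adding Il7r and Vpreb1, among 2570 genes higher and 5029 lower of 54232 identifiers. Library totals added Vpreb1 (adjusted p = 0.0309), with 37.6% of all genes lower. Without S3 replicate 2, which held all 17 Il7r counts of that population, Il7r passed the threshold (adjusted p = 0.0215) and Ebf1 did not (0.0552). The fitted log2 fold change of Il7r was then -10.19, a size that depends on the prior count, since the other S3 libraries were at 0. Without S3 replicate 3, which held 10 of the 12 Ebf1 counts, the log2 fold change of Ebf1 was -7.79 (adjusted p = 0.0171). Il7r, Ebf1 and Cd79b passed the filter on low counts mostly through S0-Low and S0-Medium libraries, where they were high, so that the medians are descriptions of the genes that passed. The members' median was -4.95, or -3.46 with genes at 0 set to their bound.

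**Figure D2:**
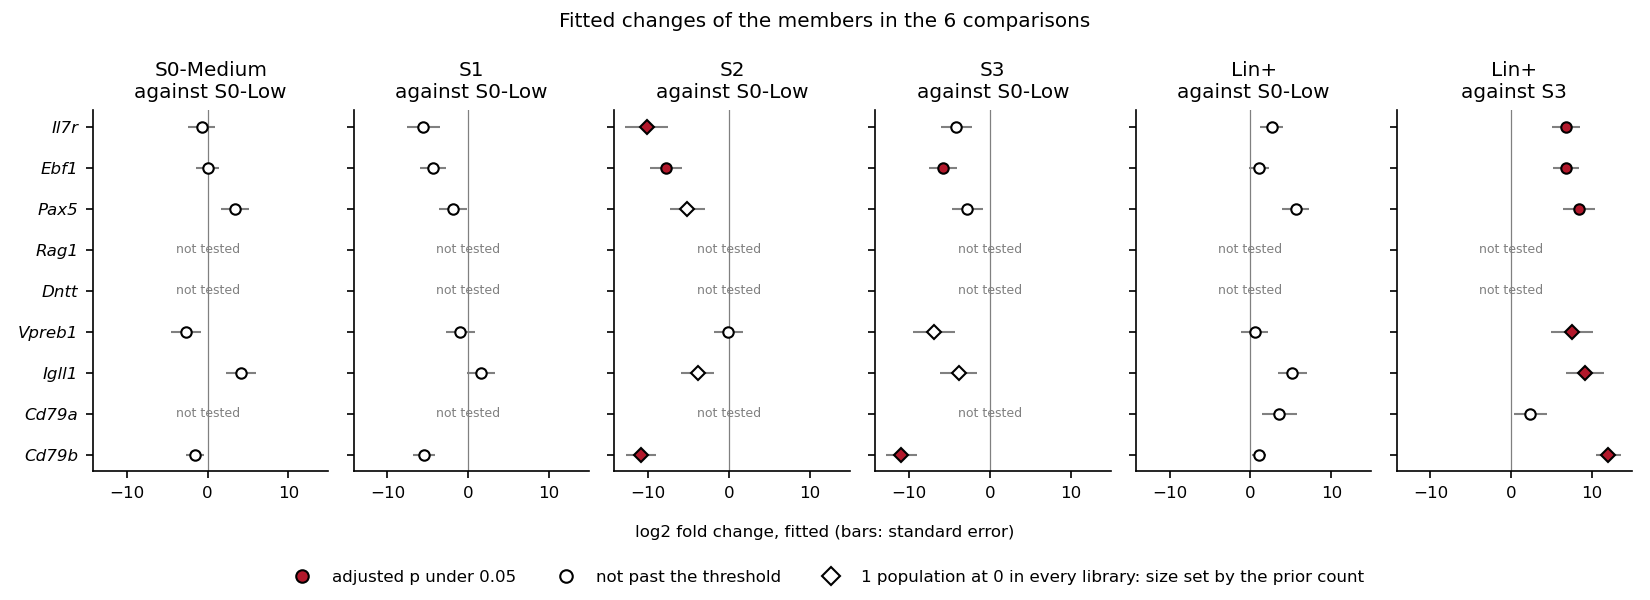
Fitted log2 fold change (horizontal axis) of each member in the 6 comparisons, with bars for the standard error. Red symbols have an adjusted p under 0.05, white ones do not, and diamonds mark a population at 0 in every library, where the size depends on the prior count; called members are lower in S2 (3) and S3 (2) and higher in Lin+ against S3 (6).

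Lin+ was compared with S0-Low to ask how the genes behave in cells taken by the lineage panel, which holds the CD45R antibody. Il7r, Pax5, Igll1 and Cd79b were above every S0-Low library, a separation not counted over all genes. The ratios of mean levels were 6.17 for Il7r, 53.9 for Pax5, 43.7 for Igll1 and 2.04 for Cd79b. Those of Pax5 and Igll1 rested on few S0-Low counts, and without S0-Low replicate 2, which held all 6 for Igll1 and 12 of 16 for Pax5, the log2 fold changes were 9.10 and 6.78. The 9.10 depends on the prior count, since Igll1 was at 0 in the other S0-Low libraries. Without Lin+ replicate 3 the log2 fold change of Pax5 was 4.86. edgeR called 0 of 7 members, against 0.496% of all genes higher and 0.22% lower. The log2 fold changes were 2.62 ± 1.39 for Il7r (adjusted p = 0.612), 5.61 ± 1.68 for Pax5 (0.168), 5.19 ± 1.76 for Igll1 (0.263) and 1.02 ± 0.88 for Cd79b (0.886). Pax5 and Igll1 had an unadjusted p under 0.05, as did 1223 genes that were higher and 525 that were lower of 17755. DESeq2 called these 2 higher (adjusted p = 0.000582 and 0.0147), among 519 genes higher and 144 lower of 54232 identifiers. Fits without 1 library gave 29 to 46 genes higher and 13 to 32 lower, against 88 and 39 with all libraries. With only the 6 libraries compared, edgeR called Il7r higher (adjusted p = 0.0467), among 520 genes higher and 53 lower.

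Ebf1 and Cd79a overlapped between Lin+ and S0-Low, with log2 fold changes of 1.05 ± 1.22 and 3.54 ± 2.17. That of Cd79a was 7.22 without S0-Low replicate 2, which held all 5 S0-Low counts, and 2.49 without Lin+ replicate 3. The 7.22 therefore depends on the prior count. Vpreb1 differed by 0.55 ± 1.67 on the log2 scale, by -0.30 without Lin+ replicate 3 and by 1.14 without S0-Low replicate 2. The median log2 fold change was 1.83 over the 6 members that also passed the filter without Lin+, 2.62 with Cd79a, which passed it only with Lin+, and 0.02 over all genes. The antigens of the panel gave this background. Ptprc, which encodes CD45, was at 131, 90.9 and 169 CPM in S0-Low, a population negative for the CD45R isoform, and at 224, 285 and 446 CPM in Lin+ (log2 fold change 1.29 ± 0.63, adjusted p = 0.547). Itga2b, which encodes CD41, was at 90 ± 58.8 CPM in S0-Low and 280 ± 157 CPM in Lin+ (SD, n = 3), with an adjusted p of 0.301. Ly6c2 had 3 counts in S0-Low and 284, 709 and 766 counts in Lin+ (adjusted p = 0.0595). Ly6g had 4 counts in S0-Low and 42, 5 and 21 in Lin+, and Cd3e and Ly6c1 averaged at most 0.0276 CPM in either population. Itgam is listed at 0 throughout.

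Lin+ was set against S3 as the opposite ends of the set. All members tested but Cd79a were higher in Lin+, 6 of 7, against 28.2% of all genes higher and 14.1% lower. Il7r was 114-fold and Ebf1 115-fold higher by ratio of means (log2 fold changes 6.74 ± 1.71 and 6.80 ± 1.59, adjusted p = 0.00551 and 0.00268). The sizes rested on few S3 counts, and the log2 fold change was 12.95 for Il7r without S3 replicate 2 and 8.82 for Ebf1 without S3 replicate 3 (adjusted p = 0.00126 and 0.00267). The 12.95 depends on the prior count, since Il7r was at 0 in the other S3 libraries. Cd79b was at least 91.3-fold higher (adjusted p = 5.56e-05), Igll1 at least 12.2-fold (0.00728) and Vpreb1 at least 3.97-fold (0.0285). Pax5 had 966 counts in Lin+ and 1 in S3, a ratio of 420 per effective depth with a 95% counting interval of 75.2 to 16598 (adjusted p = 0.00371). The log2 fold change of Pax5 was 8.40 ± 2.00, or 10.95 without S3 replicate 2 and 7.64 without Lin+ replicate 3. Cd79a had a log2 fold change of 2.37 ± 2.07 (adjusted p = 0.373), or 7.35 without S3 replicate 2, 2.96 without Lin+ replicate 1 and 1.32 without Lin+ replicate 3. The Pax5 and Cd79a values without S3 replicate 2 depend on the prior count, since the other S3 libraries were at 0.

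Leaving out Lin+ replicate 3 or any 1 S3 library ended the Vpreb1 call, with adjusted p between 0.0667 and 0.0783. The log2 fold change was 6.62 without Lin+ replicate 3 and 7.55 to 7.62 without an S3 library, against 7.51 with all of them. All of these fitted sizes depend on the prior count, since Vpreb1 was at 0 in S3. The median log2 fold change was 7.96 over the 6 members that also passed without Lin+, or 6.63 with genes at 0 set to their bound, and 0.69 over all genes. With library totals the all-gene median was 1.47 and the split of calls moved from 5005 higher and 2496 lower to 7126 and 1338.

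The rest of the B cell programme was read from a list of 25 pre-B and B cell genes, of which 24 were in the table. In Lin+ against S0-Low, 20 were tested and 1 rose, Bst1, which encodes an ectoenzyme of early B and myeloid cells (11 ± 4.66 CPM against 3 counts in S0-Low, adjusted p = 0.0449), against 0.496% of all genes higher. Of these 20, 8 passed the filter only with Lin+, the called Bst1 among them, and the other 12 had a median of 0.97, against 0.02 over all genes. With the replicate block 1 also fell. In S3 against S0-Low, 12 were tested, 7 fell and 1 rose, against 22.4% of all genes lower and 13.4% higher. The median was -5.68 (-4.24 with bounds), against -0.54 over all genes. Genes near 0 from S1 onward, such as Ighm, passed the filter through earlier populations, where they were high. Counts and medians of falls, here and in the lists below, therefore describe the genes that passed. Ighm, the μ heavy chain gene, was at 28.8, 26.7 and 19.2 CPM in S0-Low and 0 in every S2 and S3 library, and S3 was lower by at least 140-fold (adjusted p = 0.000384). Rag2 was at least 44.1-fold lower (0.0036), Blnk, a pre-B receptor adaptor, at least 5.96-fold (0.0326), and Cplx2, which encodes complexin 2, at least 44.7-fold (0.000729). Cd24a, which encodes a surface antigen of B cells and erythroid cells alike, was the gene that rose, from 129 ± 58 to 4509 ± 1244 CPM (adjusted p = 8.4e-06).

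**Figure D3:**
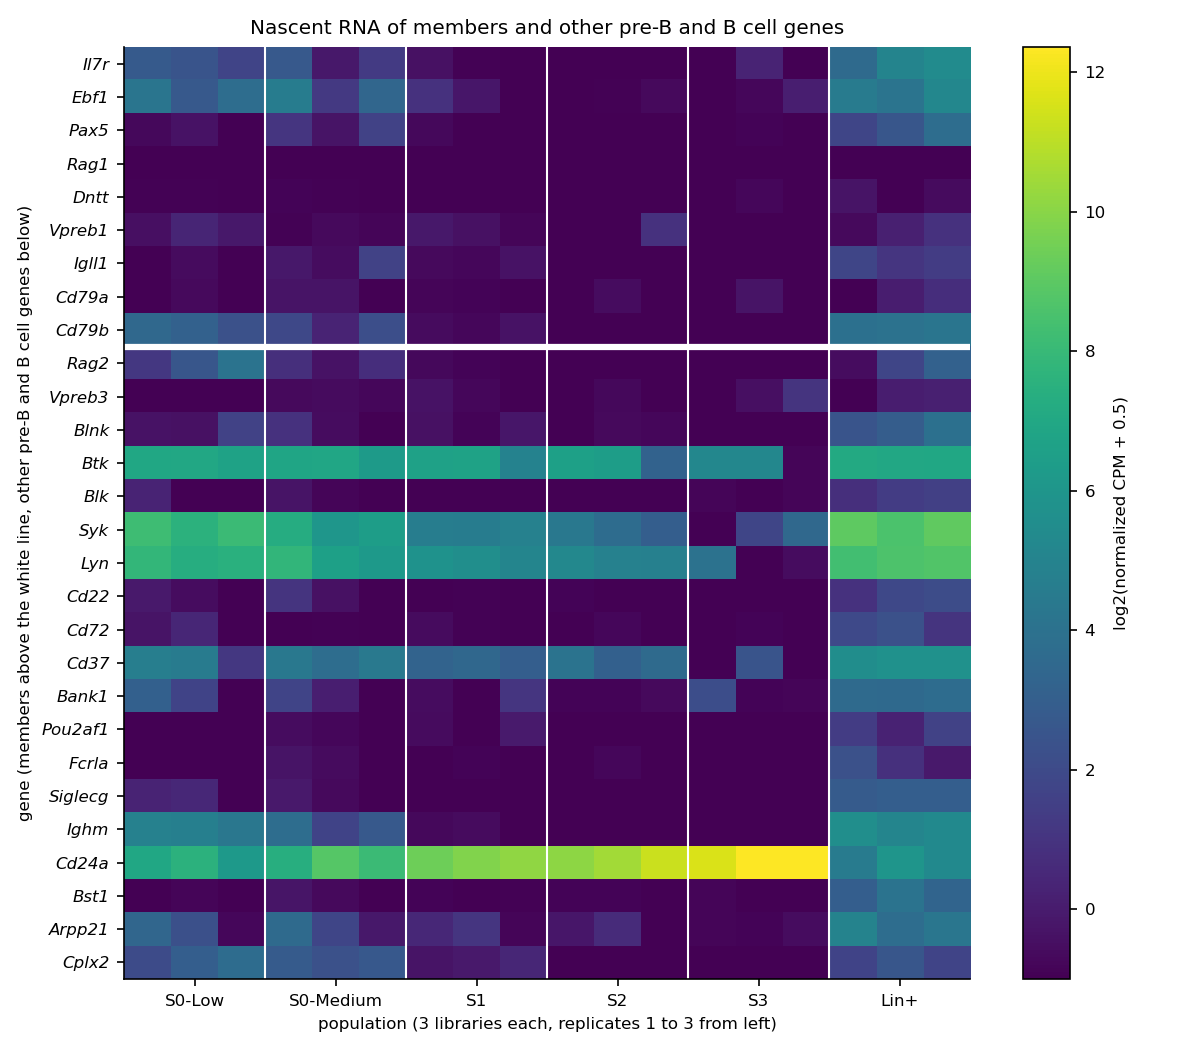
Level of the 9 members (above the white line) and of 19 of the 20 pre-B and B cell genes tested with Lin+ (below it) in each of the 18 libraries, in columns by population, as log2(normalized CPM + 0.5) by colour. Most rows are darkest in S1, S2 and S3 and brighter in Lin+, whereas Cd24a is brightest in S3 and Btk, Syk and Lyn are bright in libraries outside Lin+ too.

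Of 20 lymphoid and B cell transcription factors, 18 were tested within the erythroid series. In S1 3 fell, in S2 8 and in S3 12, with 1 rise in S3, while the share of all genes called lower was 1.95%, 6.92% and 22.4% in turn. With the replicate block 7 fell in S1. The genes with the largest fitted falls in S3, a size that depends on the prior count for genes at 0, were Erg and Bach2, at 0 in S3 and at least 547-fold and 157-fold lower (adjusted p = 3.23e-05 and 0.00115), Id2, at least 65.2-fold lower (0.000703), and Sox4, with 1 count in S3 against 10762 in S0-Low (4.81e-07). Genes of the list that were not at 0 fell by more than some of these bounds, such as Mef2c, a factor of lymphoid and other cells, from 348 ± 154 to 0.315 ± 0.546 CPM (adjusted p = 0.000178), and Aff3 from 190 ± 108 to 0.796 ± 0.89 CPM (0.000117). Tcf3, which encodes the E proteins that act upstream of Ebf1, rose from 193 ± 31.1 to 383 ± 70 CPM (log2 fold change 0.99 ± 0.28, adjusted p = 0.0128), a call that was lost with library totals. In Lin+ against S0-Low 19 were tested and Id2, an E protein antagonist, rose from 11.6 ± 5.43 to 146 ± 51.8 CPM (adjusted p = 0.0382), which was 1 call against 0.496% of all genes higher. Median log2 fold changes were 0.37 in Lin+ against S0-Low, over the 18 that also passed without Lin+, and -5.34 in S3 against S0-Low (-3.53 with bounds), against 0.02 and -0.54 over all genes.

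Of 19 genes of IL-7 receptor signalling and lymphoid priming, 17 were tested in the erythroid series. In S1 6 fell, in S2 7 and in S3 13, against 1.95%, 6.92% and 22.4% of all genes, with 1 rise, Mcl1, in S3 (log2 fold change 0.9 ± 0.28, lost with library totals). Among the largest falls in S3 were those of Satb1, a chromatin organiser (log2 fold change -9.23 ± 1.24), Notch1 (-8.90 ± 1.60) and Flt3, the receptor of lymphoid-primed progenitors (-8.43 ± 1.68, adjusted p = 0.00139). Il2rg, the partner chain of Il7r, is listed at 0 in every library. In Lin+ against S0-Low 0 of 18 were called in either direction (edgeR), and the 17 that also passed without Lin+ had a median of 0.32.

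Other lymphoid lists gave smaller counts. In S3 against S0-Low 4 of 9 T cell genes fell, against 22.4% of all genes, with a median of -7.33 (-3.10 with bounds) against -0.54 over all genes. Genes near 0 from S1 onward, such as Gata3, passed the filter through earlier populations, so these values describe the genes that passed. Among the 4 were Gata3 (at least 16.9-fold lower, adjusted p = 0.00622), Tcf7 (at least 12-fold, 0.0463) and Cd4 (at least 8.6-fold, 0.0338). Lck and Cd247, kinase and signalling chain of the T cell receptor, had log2 fold changes of 2.17 ± 1.66 and 1.75 ± 1.19 that missed the threshold (0.315 and 0.259). The summed level of the T cell list was 18.1 to 42.6 CPM in S3 and 32.1 to 43 CPM in S0-Low, which overlapped. Of 5 NK and innate lymphoid genes 1 fell, Zbtb16 (log2 fold change -9.17 ± 1.03), a share near that of all genes. With library totals 3 of these 5 fell, against 37.6% of all genes. Of 6 plasmacytoid dendritic genes 4 fell, among them Siglech (at least 35.7-fold lower, adjusted p = 0.00715). In Lin+ against S0-Low 0 of 13 T cell, 0 of 9 NK and innate lymphoid and 0 of 8 plasmacytoid dendritic genes were called by edgeR. The genes of these lists that also passed without Lin+ (9, 5 and 6) had medians of 1.17, 1.97 and 0.71. Of the antigens of the panel, Ptprc fell in S3 (at least 732-fold, adjusted p = 1.74e-05). Neutrophil and monocyte markers rose in Lin+ against S0-Low for 6 of 14, or 10 with the replicate block, against 0.496% of all genes. Camp, S100a8, S100a9, Ngp and Ltf, which encode granule and calcium-binding proteins of neutrophils, were 5 of the 6, and they passed the filter only with Lin+, where they were high. Of the 9 markers that also passed without it, 1 was called, Lyz2 (log2 fold change 4.54 ± 0.81, adjusted p = 0.013). In S3 against S0-Low 7 of 9 of these markers fell and 9 of 9 erythroid markers rose, while in Lin+ 1 erythroid marker fell, Klf1 (log2 fold change -2.90 ± 0.52, adjusted p = 0.0112). The part of such cells in the member values was not tested.

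**Figure D4:**
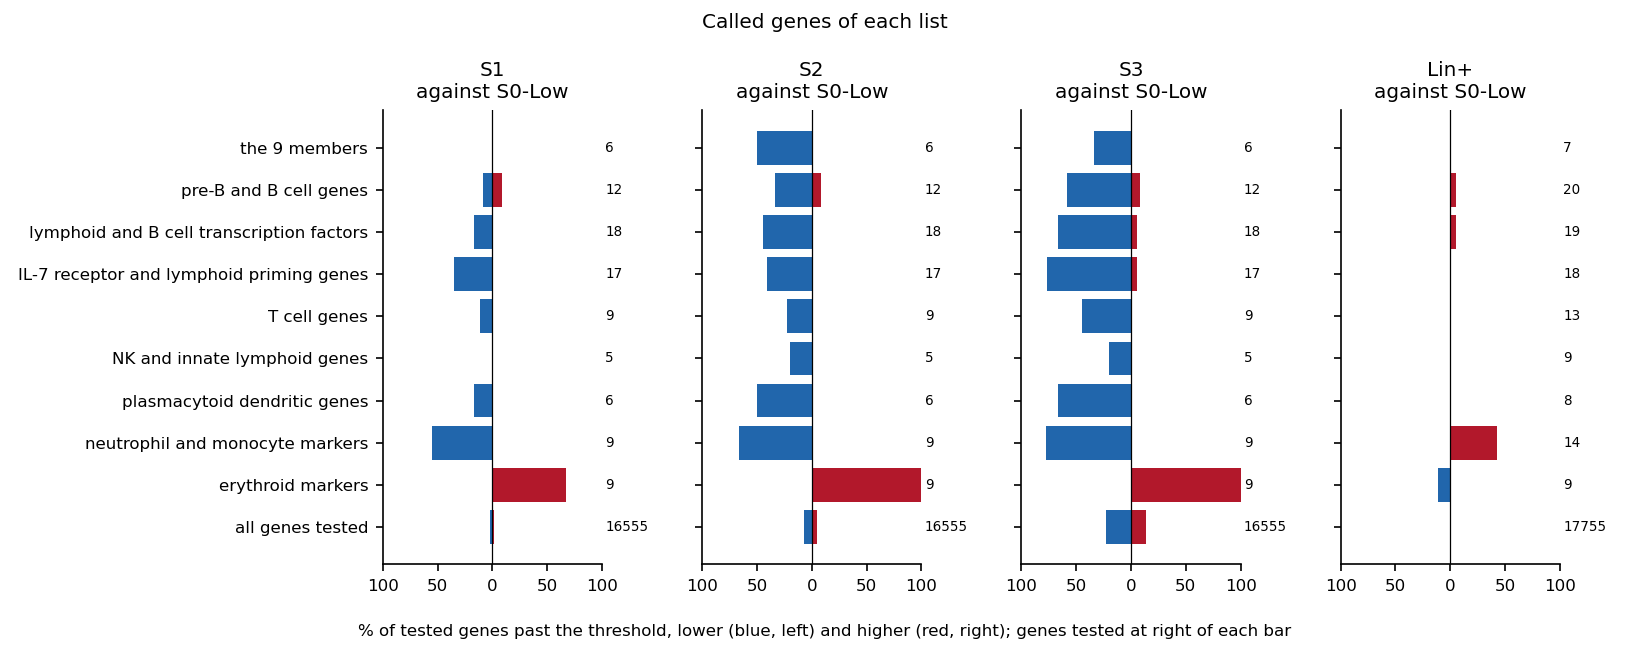
Share of tested genes of each list called lower (blue, to the left) and higher (red, to the right), in % on the horizontal axis, for S1, S2, S3 and Lin+ against S0-Low, with the number tested at the right of each bar. Blue bars lengthen from S1 to S3 for most lymphoid lists and for all genes tested (1.95%, 6.92% and 22.4%), that of the 9 members is longer in S2 (3 of 6) than in S3 (2 of 6), and in Lin+ against S0-Low the longest bar is that of neutrophil and monocyte markers (6 of 14, of which 5 passed the filter only with Lin+).

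Genes most like each member over the 18 libraries were ranked by Pearson's r on log2(CPM + 0.5) among 12060 genes, as a description with no test, since the libraries share populations. Cd79b was most like Tmem176b and Psmb8 (r = 0.99 each) and Ighm (0.98). Tiam2 and Atp8b4 were among the genes most like Il7r (0.97 each), and Adrbk2 and Thrb among those most like Ebf1 (0.97 each). These held at r of 0.93 or more over the 15 erythroid libraries alone. Pax5 was most like Gpr34 (0.94), Ggt5 (0.93) and Ppp1r3d (0.92), and Igll1 like Ppp1r3d (0.93), Dram1 and Erp27 (0.92 each), at r between 0.77 and 0.86 without Lin+. Cd79a was most like Osbpl6 (0.87), Lrrc67 (0.84) and Klrk1 (0.80), and without Lin+ the values for Lrrc67 and Klrk1 were 0.44 and 0.48. Vpreb1 had no close match, with Sike1 at 0.76 and Nck1 and Zfp58 at 0.72.

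Among the members themselves, Il7r, Ebf1 and Cd79b formed 1 set, with r of 0.92 to 0.95 over 18 libraries and 0.92 to 0.94 over the 15 erythroid libraries. Pax5 and Igll1 were a second pair at 0.91 and 0.88. Vpreb1 and Igll1, whose products pair, had r = 0.20 over 18 libraries and -0.16 over 15, and Cd79a and Cd79b had r = 0.39 and -0.01.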

How the data were processed

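Per the labels and methods, 4sU-labelled RNA was purified and sequenced from 18 libraries (stranded total RNA kit, 14 PCR cycles). The authors generated the deposited counts per gene with Kallisto, version 0.43.0, on GRCm38 in the submitters' processing notes. The transcript set, and how intronic reads were treated, are not given in the sources used here. Kallisto divides reads that fit several transcripts, so near-identical copies share counts.

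Populations and replicate numbers came from the labels. Counts were tested with edgeR 4.0.16 in R 4.3.3 (TMM, filterByExpr by population, glmQLFit and glmQLFTest, two-sided, Benjamini-Hochberg over all genes tested, threshold 0.05). The 4 comparisons within the erythroid series were fitted on 15 libraries (16555 genes) and those with Lin+ on 18 libraries (17755 genes). The filter passed 6 members in the first fit, without Rag1, Dntt and Cd79a, and 7 in the second, without Rag1 and Dntt. Standard errors follow from the fold change and the F statistic. DESeq2 1.42.0, other scalings, filters and sample sets, the replicate block and leaving out each library were alternatives. The code was tested on artificial counts with known changes. Replicates of a population differed beyond sampling noise (chi-square per degree of freedom of at least 79.3).

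The replicate number was checked as a pairing by correlating the deviations of same-numbered libraries from their population means. All 3 correlations were above 0.1 for Lin+, S0-Medium, S1 and S2 against S0-Low (0.183 to 0.388). For S3 against S0-Low and Lin+ against S3 only 2 of 3 were above 0.1. Libraries of unlike numbers were not correlated and the labels state no pairing, so whether the numbers mark pairs was not settled. With the block, the members called lower in S1 went from 0 to 1.

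Named genes were the 9 members, Vpreb2, antigens of the lineage antibodies, up to 4 genes per list and direction with the largest called changes in Lin+ and in S3 against S0-Low, and the 3 genes most like each member. Mef2c, Aff3, Lck, Cd247, Ltf, Lyz2, Btk, Syk, Lyn, Il2rg, Rpl13 and Ndufa13 were named after their values were seen. Some genes that this rule names, or that the lists hold, are not reported here by name. The members and lists were chosen with earlier results of these data known. Coordinates are RefSeq, GRCm38.p6. Mast cell, megakaryocyte, hepatocyte, endothelial and stem cell marker lists gave 0 genes called by edgeR in Lin+ against S0-Low, and 2 of 3, 1 of 7 (4 with library totals), 3 of 4, 4 of 6 and 8 of 8 lower in S3 against S0-Low, where 22.4% of all genes were lower (37.6% with library totals).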

Additional observations from a re-analysis of the deposited data

How the results depend on the processing

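Of 516 alternative values of member fold changes, 478 kept their direction and their side of the threshold, 11 lost a call, 18 gained one and 9 changed sign, none of them a called value. Members called higher in Lin+ against S0-Low were 0, but 2 with DESeq2 and 1 (Il7r) with only the 6 libraries compared. Members called lower in S1 were 0, but 3 with DESeq2, 1 with library totals, 1 without a filter on low counts, 1 with the replicate block, 2 with only the 6 libraries compared and 1 with all 18 libraries. In S2 the 3 lower calls ranged from 1 to 3 when a library was left out. In S3 the 2 lower calls became 4 with DESeq2 and 4 with all 18 libraries. The replicate block changed no other count of member calls. Signs changed for Vpreb1 in Lin+ against S0-Low (-0.30 without Lin+ replicate 3, and -0.30 to 1.14 over all fits without a library), for Ebf1 in S0-Medium against S0-Low (0.05 with only the 6 libraries compared, and -1.05 to 0.48 over fits without a library) and for Vpreb1 in S2 against S0-Low (-6.91 to 0.50 over fits without a library). The cause was not tested. Summing Vpreb1 and Vpreb2 changed no call of Vpreb1. A minimum of 10 counts in every library compared left 3 members in Lin+ and S0-Medium against S0-Low and none elsewhere. Over all genes, Lin+ against S0-Low gave 88 higher and 39 lower with edgeR, 519 and 144 with DESeq2, 311 and 82 without a filter, 227 and 115 with the block, and 29 and 28 with at least 10 counts. With only the 6 libraries compared it gave 520 and 53. S0-Medium gave 0 and 0 with edgeR, 31 and 24 with DESeq2, 43 and 10 without a filter, and 22 and 1 with the block. S1 gave 162 and 322 with edgeR, 385 and 1323 with DESeq2, 348 and 791 without a filter, 465 and 534 with the block, 199 and 1020 with only the 6 libraries, 256 and 707 with all 18, and 104 and 168 with at least 10 counts. S2 gave 724 and 1145 with edgeR, 910 and 2413 with DESeq2, 451 and 1280 with RLE size factors, 1319 and 1464 with the block, 379 and 1127 with only the 6 libraries, and 355 and 284 with at least 10 counts. S3 gave 1404 and 2430 with only the 6 libraries and 1512 and 1522 with at least 10 counts, against 2220 and 3712. Lin+ against S3 gave 1724 and 1705 with at least 10 counts, against 5005 and 2496. Fits without 1 library gave 29 to 46 higher and 13 to 32 lower in Lin+ against S0-Low, 36 to 83 and 51 to 212 in S1, and 274 to 643 and 588 to 914 in S2. S0-Low replicate 3 had the fewest counts, 9452476, and leaving it out changed no member call.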
